A study of Mus musculus with 7 samples.

Results

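The 10 genes described here are macrophage markers and the complement C1q genes: C1qa, C1qb, C1qc, Csf1r, Adgre1, Cd68, Aif1, Lyz2, Cd14 and Mrc1. They were found by their symbol among the probe sets that the platform annotation assigns to 1 gene. Each of the 10 had 1 such probe set, and they are 10 of 22180 genes tested. Expression was measured on 7 whole-transcript microarrays of pancreatic islets isolated from mice by collagenase digestion. Islet RNA on the 4 arrays labelled Gata6 KO (KO-labelled arrays below) came from Gata6 flox/flox;Pdx1-Cre mice, and that on the 3 control arrays from Gata6 flox/flox mice, so all 7 carry the floxed alleles and the controls carry no Cre. Pdx1-Cre is active in the pancreatic epithelium, which gives rise to endocrine, acinar and ductal cells but not to macrophages. An effect of Cre itself cannot be told apart from one of Gata6. Islets of 3 mice, 2 months old, were pooled for every array, so the spread between arrays is one between pools.

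Macrophages reside in normal islets, where they lie close to blood vessels and beta cells and depend on signals through the CSF1 receptor. Tissue macrophages are a main source of C1q, the recognition molecule of the classical complement pathway, whose A, B and C chains are encoded by C1qa, C1qb and C1qc. C1q binds antibody complexes and cell debris, activates the proteases C1r and C1s and also aids the uptake of dying cells. In the RNA of whole islets a change in the number of macrophages and a change in RNA per macrophage cannot be told apart.

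The targeted gene did not check the labels. Gata6 measured 5.41, 5.35, 5.34 and 5.01 log2 units on the arrays labelled Gata6 KO and 4.60, 4.80 and 4.83 on the control arrays, and did not pass the test (limma, Benjamini-Hochberg adjusted p = 0.0622; as low as 0.0312, with array weights, over the alternatives). The deleted exons and the position of the probes are not given in the sources used here, and probes that lie beyond the deleted exons would not report the deletion. The median log2 difference of all genes, Gata6 KO minus control, was 0.17, and changes called relative below are log2 differences minus this shift. The 12 beta-cell markers were all lower on the KO-labelled arrays, and their summed linear signal was 888 to 2530 there against 7693 to 10323 on the control arrays. Of 13 acinar markers 8 were higher and 0 lower, where the limma test called 17.4% of all genes higher and 7.36% lower. The summed signal of the acinar markers was 61987 to 67839 on the KO-labelled arrays and 47455 to 48414 on the control arrays. The part of this difference in tissue makeup in the values below was not tested.

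Of the 10 genes 4 rose on the KO-labelled arrays at an adjusted p under 0.05 and 0 fell (limma, Benjamini-Hochberg over all genes). The same test called 17.4% of all genes higher, 7.36% lower and 24.7% in either direction. Aif1, Cd14, Mrc1 and Lyz2 rose, and their groups did not overlap, which held in this direction for 24.4% of all genes. The control means of Aif1 (1.83), Cd14 (1.99) and Mrc1 (1.99) lay near the control array medians of 1.72 to 1.78. Lyz2 lay below them on control array 3 (1.47). The C1q genes, Csf1r, Adgre1 and Cd68 did not pass the test, and their groups overlapped. The median log2 difference of the 10 genes was 0.36, against 0.17 for all genes. The 4 calls held under 2 other scalings, median-centring of every array and a second quantile normalization, which lower the values of the KO-labelled arrays relative to the control arrays.

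**Figure D1:**
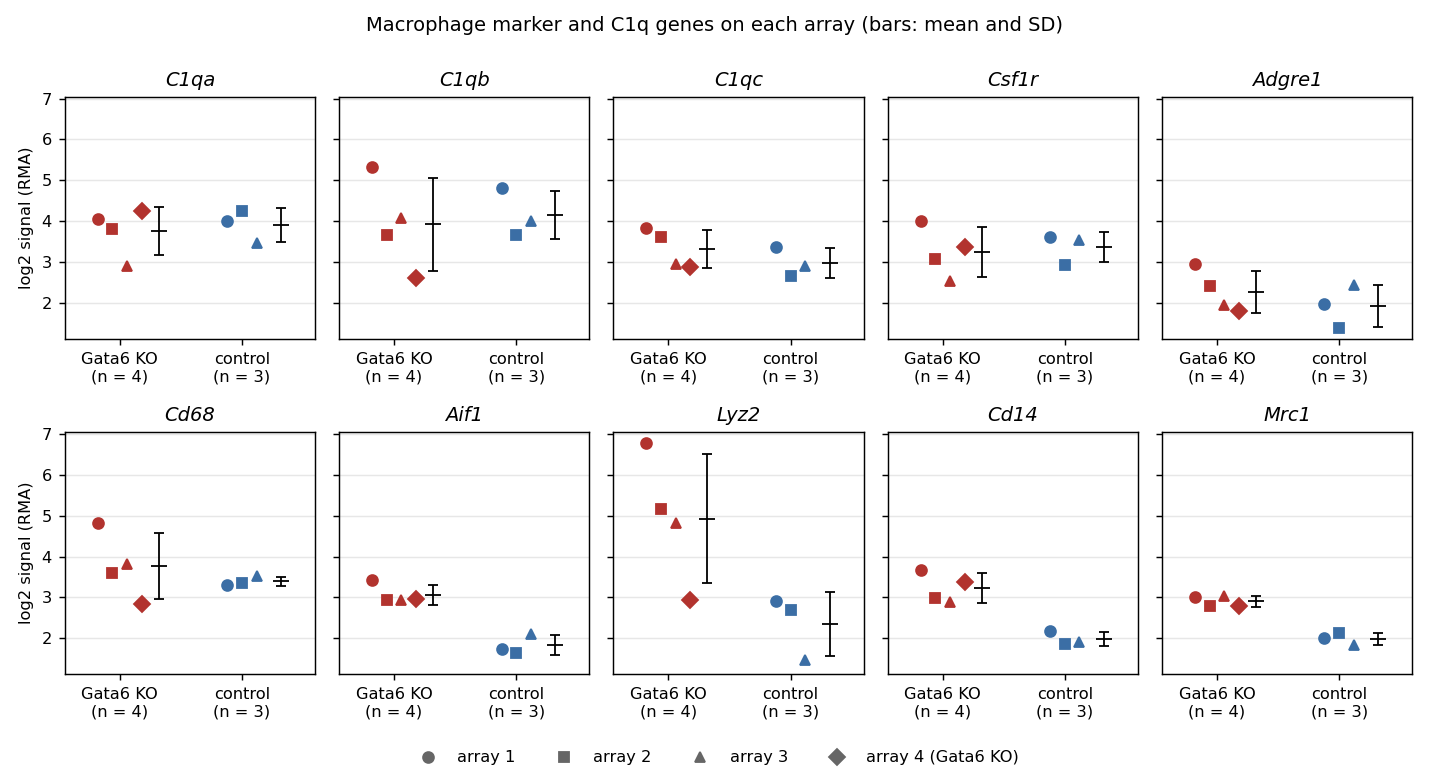
Log2 signal (vertical axis) of each of the 10 genes on the 4 arrays labelled Gata6 KO (red, left) and the 3 control arrays (blue, right). Marker shape gives the array number and black bars the mean with SD. Aif1, Lyz2, Cd14 and Mrc1 have no KO-labelled array below a control array, while the groups overlap for the other 6 genes.

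The C1q genes lie next to each other in the order C1qb, C1qc, C1qa on chromosome 4, with no other gene between them in the RefSeq gene table. C1qa, which encodes the A chain, measured 4.05, 3.81, 2.91 and 4.24 log2 units on KO-labelled arrays 1 to 4 and 4.01, 4.25 and 3.45 on control arrays 1 to 3. KO-labelled array 3 was the lowest of the 7, and the other KO-labelled arrays lay within the range of the controls. The log2 difference was -0.15 with a 95% confidence interval (CI) from -0.80 to 0.50, and did not pass the test (limma adjusted p = 0.754).

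C1qb, which encodes the B chain, measured 5.33, 3.67, 4.08 and 2.60 log2 units on KO-labelled arrays 1 to 4 and 4.80, 3.67 and 4.00 on the control arrays. KO-labelled array 1 was the highest and KO-labelled array 4 the lowest of the 7. The SD of 1.13 on the KO-labelled arrays compares with 0.58 on the control arrays, and the log2 difference was -0.24 (95% CI -1.25 to 0.77; limma adjusted p = 0.752). Without KO-labelled array 1 the log2 difference was -0.71 and without KO-labelled array 4 it was 0.20, and neither passed the test.

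C1qc, which encodes the C chain, measured 3.82, 3.61, 2.96 and 2.88 log2 units on KO-labelled arrays 1 to 4 and 3.38, 2.65 and 2.90 on the control arrays. KO-labelled arrays 1 and 2 lay above every control array, and arrays 3 and 4 within the control range. The log2 difference was 0.34 (95% CI -0.25 to 0.93; limma adjusted p = 0.390). The mean log2 value of the 3 C1q genes was 4.40, 3.70, 3.32 and 3.24 on the KO-labelled arrays, against 4.06, 3.52 and 3.45 on the control arrays, which overlapped. On the deposited scale the intervals of C1qa and C1qc exclude a change of 1 log2 unit in either direction. That of C1qb does not exclude such a fall. After centring each array the log2 difference of C1qa was -0.40, for which no interval was computed, so the exclusion covers the deposited scale only.

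RefSeq promoter sequences (build GRCm38.p6) were at hand for 6 of the 10 genes, among them C1qb and C1qc. They are shown because these neighbouring, uncalled genes both hold a core motif of PU.1, the macrophage lineage factor encoded by Spi1. The 250 bases before the gene's start are printed 5′ to 3′ on the gene's strand, and capitals mark GAGGAA or, on the opposite strand, TTCCTC. The C1qb window is chr4:136886201-136886450 and the C1qc window chr4:136892915-136893164, both on the minus strand.
C1qb: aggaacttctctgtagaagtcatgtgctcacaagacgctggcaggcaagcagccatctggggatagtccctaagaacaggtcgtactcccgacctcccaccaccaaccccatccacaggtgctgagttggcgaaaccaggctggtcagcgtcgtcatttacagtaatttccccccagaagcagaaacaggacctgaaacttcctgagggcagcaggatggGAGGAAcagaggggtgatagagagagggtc
C1qc: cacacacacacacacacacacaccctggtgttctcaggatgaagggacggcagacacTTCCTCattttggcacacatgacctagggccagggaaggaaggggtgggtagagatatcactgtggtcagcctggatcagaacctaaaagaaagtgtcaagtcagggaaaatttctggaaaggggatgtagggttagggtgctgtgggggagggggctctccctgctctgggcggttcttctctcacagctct
C1qb had 1 such match, which began 30 bases before the start, and C1qc 1 match 193 bases before it on the opposite strand. The motif on either strand was present in 23.3% of 32851 promoters of the same length, and its presence is a description of the letters, not of binding.

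Csf1r encodes the receptor of the growth factors CSF1 and IL-34, on which most tissue macrophages depend. It measured 4.00, 3.09, 2.54 and 3.37 log2 units on KO-labelled arrays 1 to 4 and 3.61, 2.94 and 3.54 on the control arrays. KO-labelled array 1 was the highest of the 7 and KO-labelled array 3 the lowest. The log2 difference was -0.11 (95% CI -0.77 to 0.54; limma adjusted p = 0.821).

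Adgre1 encodes F4/80, a surface receptor used to identify mouse macrophages. Its log2 signal was 2.94, 2.42, 1.94 and 1.80 on KO-labelled arrays 1 to 4 and 1.97, 1.39 and 2.43 on the control arrays, so that 1 KO-labelled array exceeded every control array. Adgre1 differed by 0.35 log2 units (95% CI -0.30 to 0.99; limma adjusted p = 0.425).

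Cd68 encodes a lysosomal membrane protein of macrophages. It measured 4.81, 3.60, 3.81 and 2.85 log2 units on KO-labelled arrays 1 to 4, against 3.31, 3.35 and 3.52 on the control arrays. The controls lay close together, while 3 KO-labelled arrays lay above them and KO-labelled array 4 below. The log2 difference was 0.38 (95% CI -0.36 to 1.12; limma adjusted p = 0.453), and it was 0.03 without KO-labelled array 1.

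Aif1 encodes IBA1, an actin-bundling protein of macrophages and microglia. It measured 3.43, 2.94, 2.93 and 2.95 log2 units on KO-labelled arrays 1 to 4 and 1.73, 1.65 and 2.10 on control arrays 1 to 3. The lowest KO-labelled array lay 0.83 above the highest control array. Aif1 rose 2.36-fold, a log2 difference of 1.24 (SE 0.22, limma adjusted p = 0.00126) and a relative change of 1.07. The exact two-sided permutation test over the 35 splits of the arrays gave p = 0.0286, the smallest it can give.

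Cd14 encodes the co-receptor that passes bacterial lipopolysaccharide to TLR4. Its log2 signal was 3.68, 2.98, 2.90 and 3.37 on KO-labelled arrays 1 to 4, against 2.18, 1.87 and 1.91 on the control arrays. All 4 KO-labelled arrays exceeded the controls. The log2 difference was 1.24 (SE 0.24, limma adjusted p = 0.00193), or 1.08 relative to all genes, and the exact permutation p was 0.0286. Aif1 and Cd14 had the most similar profiles of any pair of the 10 genes, with a root mean square difference of 0.22 log2 units over the 7 arrays after each gene was centred on its own mean.

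Mrc1 encodes the mannose receptor CD206, which macrophages and lymphatic and sinusoidal endothelial cells carry. It measured 3.00, 2.78, 3.03 and 2.79 log2 units on KO-labelled arrays 1 to 4 and 2.00, 2.14 and 1.84 on the control arrays. The KO-labelled arrays lay close together and above every control array. Mrc1 rose by 0.91 log2 units (SE 0.20, limma adjusted p = 0.00510), or 0.74 relative to all genes, with an exact permutation p of 0.0286. Of 7 measured lymphatic endothelial markers 2 rose and 1 fell, beside 17.4% of all genes called higher and 7.36% called lower. Pdpn, which encodes podoplanin, had a relative change of 1.00 (SE 0.22), and the transcription factor gene Prox1, which islet endocrine cells also express, one of -2.27 (SE 0.23). The summed linear signal of these markers was 46.6 to 54.7 on the KO-labelled arrays and 61.0 to 78.5 on the control arrays. Prox1 carried this difference, and the other 6 markers summed to 38.5 to 47.4 on the KO-labelled arrays and 34.3 to 39.9 on the control arrays, which overlapped. The part of these markers in the Mrc1 difference was not tested.

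Lyz2 encodes the lysozyme of macrophages and neutrophils. It measured 6.78, 5.16, 4.83 and 2.93 log2 units on KO-labelled arrays 1 to 4, against 2.91, 2.68 and 1.47 on the control arrays. KO-labelled array 4 lay only 0.03 above the highest control array, whereas the other KO-labelled arrays lay far above the controls. Lyz2 rose with a log2 difference of 2.57 (SE 0.63, 95% CI 1.23 to 3.92, limma adjusted p = 0.00889), or 2.41 relative to all genes, and the exact permutation p was 0.0571.

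The size of the Lyz2 difference depended on single arrays. It was 1.96 without KO-labelled array 1 and 3.24 without KO-labelled array 4, and both passed the test. It did not pass without control array 3 (log2 difference 2.13, limma adjusted p = 0.0516) or with robust variance estimation (adjusted p = 0.0997). The neighbouring gene Lyz1 is nearly identical in sequence, so that probes may respond to both. Of 11 neutrophil and mast cell markers 2 rose and 0 fell, or 18.2% called higher, near the 17.4% of all genes. These were Cpa3 of mast cells (relative change 1.03, SE 0.29) and Elane, neutrophil elastase (0.71, SE 0.22), whose call was lost without control array 2 (limma adjusted p = 0.0696). The control means of Cpa3 (0.97) and Elane (1.32) lie below the control array medians. The summed signal of this list was 29.2 to 34.7 on the KO-labelled arrays and 26.7 to 27.5 on the control arrays. Without Cpa3 the sums were 24.9 to 30.5 on the KO-labelled arrays and 24.9 to 25.2 on the control arrays, which overlapped. The part of these cells in the Lyz2 difference was not tested.

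**Figure D2:**
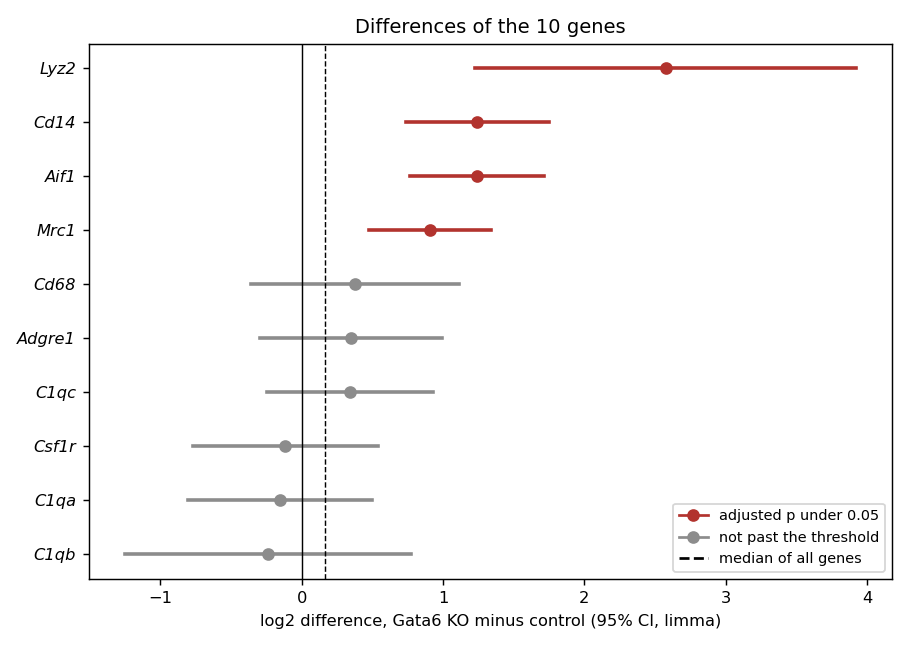
Log2 difference (horizontal axis), Gata6 KO minus control, of each of the 10 genes with its 95% confidence interval from limma. Red marks genes at an adjusted p under 0.05, grey the others, and the dashed line the median of all genes at 0.17. The intervals of Lyz2, Cd14, Aif1 and Mrc1 lie above that line, and those of the other 6 genes include 0.

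The promoters of the called genes Aif1, Mrc1 and Lyz2 are printed in the same way for comparison with those of the uncalled C1q genes. Their windows are chr17:35176053-35176302 on the minus strand, chr2:14229164-14229413 on the plus strand and chr10:117282273-117282522 on the minus strand, and capitals again mark GAGGAA or TTCCTC.
Aif1: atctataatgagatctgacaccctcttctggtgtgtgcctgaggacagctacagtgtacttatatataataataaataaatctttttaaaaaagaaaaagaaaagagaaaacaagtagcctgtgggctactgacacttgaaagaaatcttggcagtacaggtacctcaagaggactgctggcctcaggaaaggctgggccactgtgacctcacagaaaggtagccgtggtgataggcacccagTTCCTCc
Mrc1: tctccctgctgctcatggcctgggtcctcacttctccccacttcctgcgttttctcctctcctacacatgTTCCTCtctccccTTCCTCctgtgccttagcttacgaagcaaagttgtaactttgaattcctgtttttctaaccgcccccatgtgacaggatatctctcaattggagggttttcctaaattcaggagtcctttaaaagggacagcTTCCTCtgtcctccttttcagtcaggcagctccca
Lyz2: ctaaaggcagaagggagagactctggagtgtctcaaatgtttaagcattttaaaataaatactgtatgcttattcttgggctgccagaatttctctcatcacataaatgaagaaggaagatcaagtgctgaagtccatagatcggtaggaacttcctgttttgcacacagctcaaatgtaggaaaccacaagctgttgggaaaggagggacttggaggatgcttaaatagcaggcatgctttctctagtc
Aif1 held 1 match, 7 bases before the start. Mrc1 held 3, which began 180, 167 and 35 bases before it, all on the opposite strand. These letters are not in the Lyz2 window. With Cd68, 5 of the 6 promoters held the core, both from genes that rose and from genes that did not.

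The KO-labelled arrays differed among themselves in these genes. KO-labelled array 1 was the highest of the 4 for 8 of the 10 genes, all but C1qa and Mrc1. Over all genes that array was the highest of the 4 for 25.5%. KO-labelled array 4 was the lowest for 5 of the 10 genes, against 21.3% of all genes. The mean log2 value of the 10 genes was 4.18, 3.41, 3.19 and 2.98 on KO-labelled arrays 1 to 4 and 2.99, 2.66 and 2.72 on the control arrays, so that KO-labelled array 4 lay just below control array 1. Ptprc, which encodes the leukocyte marker CD45 and was chosen here after its values were seen, measured 3.84, 2.18, 2.07 and 1.91 on KO-labelled arrays 1 to 4 and 2.08, 1.40 and 1.59 on the control arrays. It did not pass the test (limma adjusted p = 0.140).

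**Figure D3:**
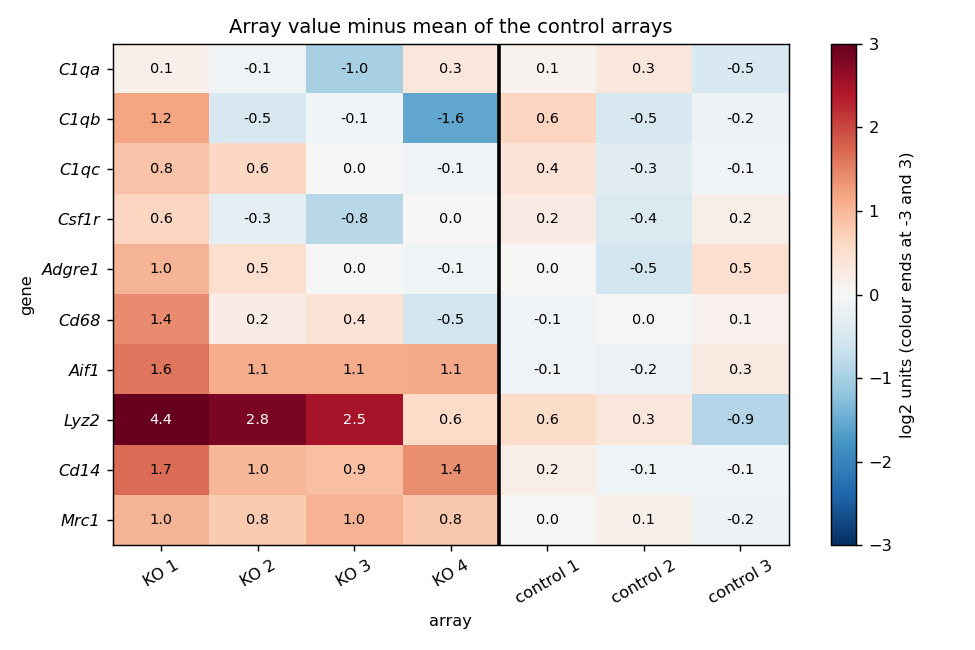
Value of each of the 10 genes (rows) on each array (columns) minus the mean of the 3 control arrays, in log2 units, with KO-labelled arrays left of the black line. Colour runs from blue (lower) to red (higher) and ends at -3 and 3, and the numbers give the differences. KO-labelled array 1 is above the control mean for all 10 genes, and Aif1, Lyz2, Cd14 and Mrc1 are above it on all 4 KO-labelled arrays.

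The profiles most like the mean of the C1q genes over the 7 arrays belonged to Chd2, Anapc1, G3bp1, Vkorc1 and Qser1, with root mean square differences of 0.12 to 0.13 log2 units. These were the nearest of the genes in the upper 60% by mean level, the 10 genes themselves left out. Chd2, a chromatin remodeller, measured 3.60, 2.77, 2.32 and 2.04 on KO-labelled arrays 1 to 4 and 3.08, 2.47 and 2.35 on the control arrays. G3bp1, a stress granule protein, measured 5.57, 5.03, 4.81 and 4.57 on the KO-labelled arrays and 5.43, 4.72 and 4.98 on the control arrays. None of these 5 genes is on the macrophage or complement lists. None of them passed the test in either direction. Among the 10 genes, the profile nearest to that of C1qc was that of Adgre1, with a root mean square difference of 0.28.

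Other macrophage and monocyte genes were compared in a list of 40, of which 37 were measured. Of these 16 rose and 0 fell, or 43.2% called higher, beside 17.4% of all genes. Their median log2 difference was 0.61, against 0.17 for all genes. After centring and after the repeated quantile normalization 10 rose and 0 fell. Under these 2 scalings 1742 and 2018 of all 22180 genes were called higher, against 3853 on the deposited scale. Mpeg1, the pore-forming macrophage protein perforin-2, measured 4.11, 3.38, 3.25 and 2.71 on KO-labelled arrays 1 to 4 and 1.62, 1.57 and 1.40 on the control arrays. Its relative change was 1.67 (SE 0.28, limma adjusted p = 0.000401).

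The lineage factors rose as well. Spi1, which encodes PU.1, measured 3.69 ± 0.40 (SD, n = 4) on the KO-labelled arrays and 2.36 ± 0.05 (SD, n = 3) on the control arrays, a relative change of 1.17 (SE 0.24). Irf8, its partner in monocyte development, measured 3.24 ± 0.18 and 2.06 ± 0.16 (SD, n = 4 and 3), a relative change of 1.02 (SE 0.21). Itgam, the CD11b integrin subunit that is part of complement receptor 3, had a relative change of 1.10 (SE 0.22). Of the 37 genes 21 were not called. Among these, named here after their values were seen, were Itgb2 (log2 difference -0.09), Cx3cr1 (0.12) and Lyve1 (-0.58). Their limma adjusted p was 0.804, 0.769 and 0.253.

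The scavenger receptor gene Marco measured 5.13, 2.86, 3.31 and 4.29 on KO-labelled arrays 1 to 4 and 2.09, 1.63 and 1.57 on the control arrays. Its relative change was 1.97 (SE 0.41), and KO-labelled arrays 1 and 4 were the highest. Clec4n, the lectin receptor Dectin-2, had a relative change of 0.87 (SE 0.21). The control means of Clec4n (0.48), Itgam (1.00) and Mpeg1 (1.53) lie below the control array medians of 1.72 to 1.78. The effect of this low signal on their differences was not tested. Of the 37 genes 21 were highest on array 1 among the KO-labelled arrays, and the mean of the list was 3.17, 2.58, 2.48 and 2.52 on KO-labelled arrays 1 to 4, against 2.04, 1.98 and 1.95 on the control arrays. Without KO-labelled array 1 the list had 14 higher and 0 lower, where 3628 of all 22180 genes were called higher and 1572 lower.

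Growth factors that act through the receptor of Csf1r were examined with other genes of the CSF family. Of 7 measured genes 2 rose and 1 fell, beside 17.4% of all genes called higher and 7.36% called lower. Csf1, the main ligand, named here after its values were seen, measured 2.60, 2.67, 2.62 and 1.69 on KO-labelled arrays 1 to 4 and 2.74, 2.02 and 2.80 on the control arrays. The groups overlapped, and Csf1 did not pass the test (log2 difference -0.13, limma adjusted p = 0.779). Il34, which encodes the second CSF1 receptor ligand, measured 2.47 ± 0.16 (SD, n = 4) on the KO-labelled arrays and 1.77 ± 0.39 (SD, n = 3) on the control arrays, with a relative change of 0.53 (SE 0.23, limma adjusted p = 0.0365). Csf2ra, the alpha subunit of the GM-CSF receptor, had a relative change of -0.81 (SE 0.22), and Csf3r, the G-CSF receptor of granulocytes, one of 0.52 (SE 0.23). Leaving out control array 1 ended each of these 3 calls (adjusted p = 0.0853, 0.0915 and 0.0893), as did leaving out control array 2 (0.193, 0.149 and 0.192), and adjusted p over all alternatives reached 0.193, 0.149 and 0.195. Csf2rb2, a second beta subunit, had a relative change of 0.19 (SE 0.24) and did not pass.

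Of 12 measured genes listed as partners of CD14 in the sensing of bacterial products, 2 rose and 0 fell, or 16.7%, near the 17.4% of all genes. Lbp, the lipopolysaccharide-binding protein, had a relative change of 0.51 (SE 0.23, limma adjusted p = 0.0409), and Tlr1 one of 0.52 (SE 0.19, adjusted p = 0.0201). Both calls were lost after centring (adjusted p = 0.208 and 0.116) and without control array 2 (adjusted p = 0.174 and 0.0576) or control array 3 (0.0545 and 0.0970), with adjusted p of up to 0.243 for Lbp. The Tlr1 control mean of 1.21 lies below the control array medians. Tlr4 itself measured 1.83, 2.03, 1.54 and 1.99 on KO-labelled arrays 1 to 4 and 1.12, 1.24 and 1.63 on the control arrays, which overlapped. It did not pass the test (adjusted p = 0.0781; 0.0416 with array weights). Ticam1, an adaptor of TLR4 and TLR3, had a relative change of -1.19 (SE 0.43) and did not pass (adjusted p = 0.0923), but did after centring (adjusted p = 0.0350) and without KO-labelled array 4 (adjusted p = 0.000582).

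Other complement genes were compared in a list of 38, of which 34 were measured. Of these 12 rose and 1 fell, or 35.3% called higher beside 17.4% of all genes. The split depended on the scaling, with 6 higher and 3 lower after centring each array or repeating the quantile normalization. The split of all 22180 genes moved as well, from 3853 higher and 1633 lower on the deposited scale. It was 1742 higher and 2831 lower after centring, and 2018 higher and 2892 lower after the repeated quantile normalization. The count of 13 calls was 8 when either control array 1 or control array 3 was left out. Of all genes 3265 and 3933 were then called, against 5486. Without KO-labelled array 1, 10 of the list rose and 3 fell, where 3628 of all genes rose and 1572 fell. C1s1, one of the mouse genes for the protease C1s that C1q activates, measured 1.86, 1.53, 1.66 and 1.61 on KO-labelled arrays 1 to 4, against 0.29, 0.20 and 0.35 on the control arrays. The groups were far apart, with a relative change of 1.22 (SE 0.15, limma adjusted p = 3.31e-05), but at levels below the array medians. With the mean of all probe sets of the gene in place of the brightest, the log2 difference of C1s1 was 0.71 (adjusted p = 0.00410) in place of 1.38.

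Downstream of C1s, C4b encodes complement C4 and measured 3.23, 3.03, 3.73 and 3.08 on KO-labelled arrays 1 to 4 and 2.27, 1.71 and 1.70 on the control arrays. Its relative change was 1.21 (SE 0.24, limma adjusted p = 0.00113), and a close paralog may share its probes. Cfb, factor B of the alternative pathway, measured 4.58, 3.46, 4.03 and 3.23 on the KO-labelled arrays and 2.38, 2.52 and 2.35 on the control arrays, with a relative change of 1.24 (SE 0.29, adjusted p = 0.00312).

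Among inhibitors and terminal components, Cr1l, which encodes the rodent regulator Crry, rose by 1.27 relative to all genes (SE 0.21). C4bp, which encodes a C4b-binding protein, rose by 0.69 (SE 0.19), and its control mean of 1.30 also lies below the array medians. C8b, a chain of the membrane attack component C8, measured 3.26 ± 0.67 (SD, n = 4) on the KO-labelled arrays and 5.69 ± 0.47 (SD, n = 3) on the control arrays, and was the 1 gene of the list that fell. Its relative change was -2.60 (SE 0.33, limma adjusted p = 0.000163). These genes are expressed by epithelial, mesenchymal and liver cells besides macrophages.

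**Figure D4:**
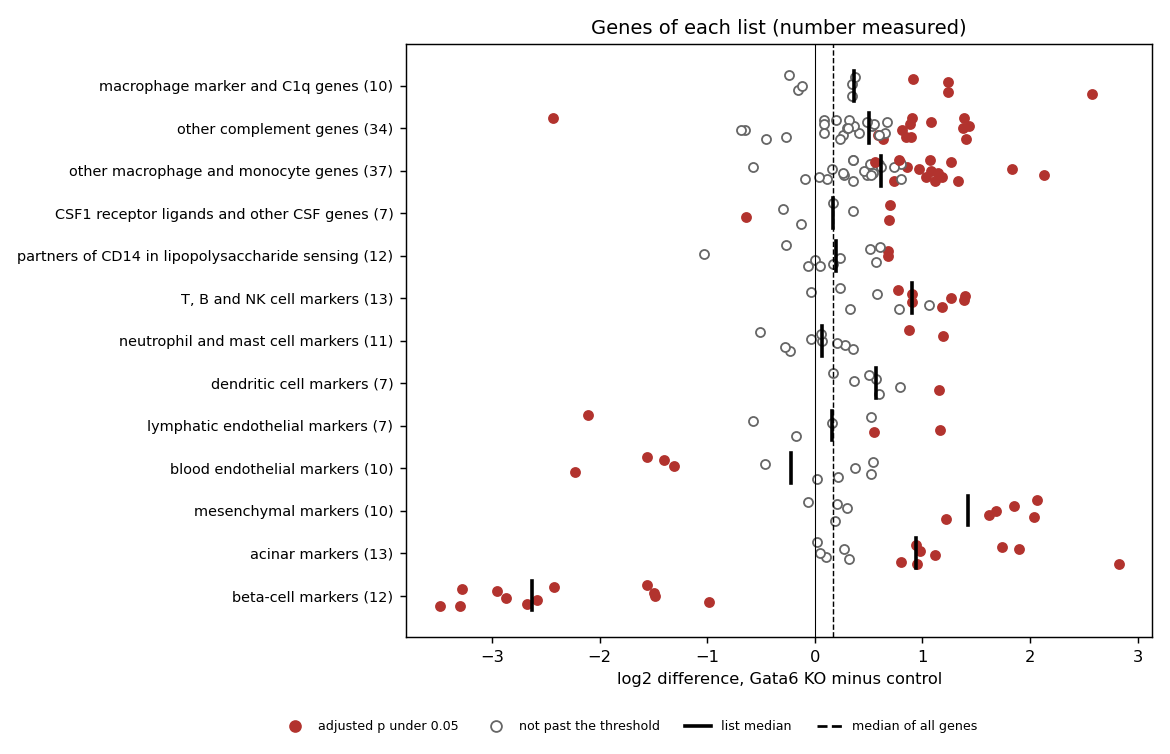
Log2 difference (horizontal axis), Gata6 KO minus control, of every measured gene of each list, with the number of genes in brackets. Filled red points passed the test at an adjusted p under 0.05, thick bars are list medians and the dashed line is the median of all genes at 0.17. The 10 macrophage marker and C1q genes have 4 filled points, all to the right, while the 12 beta-cell markers are all to the left.

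Markers of other cells moved in different directions. Lymphoid, mesenchymal and acinar markers were called higher more often than all genes. Among blood endothelial and beta-cell markers only falls were called, and the part of any of these cells in the results was not tested. Of 13 lymphoid markers 7 rose and 0 fell, or 53.8% called higher beside 17.4% of all genes. Their summed linear signal was 79.1 to 126.8 on the KO-labelled arrays and 46.1 to 51.5 on the control arrays. This sum was highest on KO-labelled array 1. Cd5 and Cd8a, both of T cells, had the smallest p of the list and relative changes of 1.23 (SE 0.21) and 1.10 (SE 0.20). Their control means of 1.64 and 1.46 lie below the control array medians. Of other T-cell markers Cd8b1 and Cd3g rose, while Cd3d, Cd3e and Cd4 did not pass (limma adjusted p = 0.0621, 0.167 and 0.543). Of 7 dendritic cell markers 1 rose, or 14.3% beside 17.4% of all genes. It was Xcr1 (relative change 0.99, SE 0.21), and Cd209a (0.63, SE 0.31) did not pass. The Xcr1 control mean of 1.52 lies below the control array medians. The Cd209a log2 difference was 0.79 (limma adjusted p = 0.0786), against 1.13 without KO-labelled array 4 (adjusted p = 0.00223) and 0.36 after the repeated quantile normalization (adjusted p = 0.404). It also passed with array weights, with the mean of all probe sets and with the replicate block (adjusted p = 0.0161, 0.0252 and 0.00143). The summed signal of the 7 markers, most of it from Cd209a, was 177.8 to 414.9 on the KO-labelled arrays and 157.2 to 230.4 on the control arrays. The other 6 summed to 27.5 to 39.9 on the KO-labelled arrays and 20.7 to 22.1 on the control arrays, with no overlap.

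Of 10 mesenchymal markers 6 rose and 0 fell, or 60% called higher beside 17.4% of all genes. Among those that rose were the collagen genes Col1a2 (relative change 1.46, SE 0.35) and Col3a1 (1.90, SE 0.44). The log2 difference of Col1a2 was 0.84 with the mean of all its probe sets, against 1.62 with the brightest. Their summed signal was 133.8 to 585.6 on the KO-labelled arrays and 81.1 to 177.4 on the control arrays, and on KO-labelled arrays too it was highest on array 1 and lowest on array 4. Of 10 blood endothelial markers 0 rose and 4 fell, beside 7.36% of all genes called lower. Among those that fell were Esm1 (relative change -2.39, SE 0.26) and the VEGF receptor gene Flt1 (-1.73, SE 0.26). The other 6 were not called. Their log2 differences were 0.54 (Vwf), 0.52 (Pecam1), 0.37 (Tek), 0.21 (Tie1), 0.02 (Cdh5) and -0.47 (Emcn). The summed signal of the 10 markers was 140.2 to 304.8 on the KO-labelled arrays and 341.5 to 478.0 on the control arrays. Without Plvap, which added most to it, the sum was 108.1 to 186.7 on the KO-labelled arrays and 190.1 to 270.8 on the control arrays. The acinar genes Amy2b and Spink1 had relative changes of 2.66 (SE 0.24) and 1.74 (SE 0.18), and the beta-cell genes Rfx6 and Glp1r ones of -2.84 (SE 0.22) and -2.74 (SE 0.24).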

How the data were processed

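The authors normalized and summarised the deposited log2 values with RMA, per the submitters' processing notes, which also name Transcriptome Analysis Console. Versions and the genome build are not given in the sources used here. RMA output is in log2 units. RMA corrects background and normalizes quantiles, yet array medians ran from 1.89 to 2.11 on the KO-labelled arrays and from 1.72 to 1.78 on the control arrays. The number of arrays limits the precision, and no detection calls were used.

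Of 41345 probe sets 23521 had 1 gene symbol, 1814 several and 16010 were unnamed here. Per gene the probe set with the highest mean was used, which left 22180 genes. Each was tested for Gata6 KO minus control with limma 3.58.1 in R 4.3.3 (lmFit, eBayes with trend, no covariate), two-sided, and called where the p adjusted by Benjamini-Hochberg across the 22180 genes was under 0.05. SEs come from the moderated fit. Exact permutation tests used the difference of group means over 35 splits. On simulated data for this comparison (22180 genes, 200 changed), 30.5% of changes of 1 log2 unit and 96% of changes of 2 were recovered, and the false calls were 3.17% and 5.42%. In the data 5486 genes were called. The Benjamini-Hochberg cutoff depends on how many genes change, so the simulated recovery need not hold for the data.

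The members and gene lists were chosen with earlier results of these data known. Named genes are the 10 members, Gata6, up to 6 genes with the smallest p of the complement and macrophage lists, 4 of the CSF and CD14 lists, 2 of each other list and the 5 nearest profiles. Alternatives covered scaling, a filter on low genes, all probe sets of a gene, variance models, array weights, a replicate block, a block for the arrays with low Xist (KO-labelled array 3 and control array 3) and leaving out each array. List sums without their leading gene were added after the values were seen. Promoters come from RefSeq tables of GRCm38.p6. Figures were drawn with matplotlib 3.10.9.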

Additional observations from a re-analysis of the deposited data

Results flagged for a closer look

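In the group of 4 arrays labelled Gata6 KO, 4 of 65 profiles held an array whose gap to its nearest neighbour took up most of the range of the group. Chance alone gives about 1 such flag in 20. Aif1 was at 3.43 log2 units on KO-labelled array 1, with the other KO-labelled arrays between 2.93 and 2.95. The mean of the other macrophage and monocyte genes was 3.17 on KO-labelled array 1 and between 2.48 and 2.58 on the other KO-labelled arrays. Flt1 was at 3.11 on KO-labelled array 1, below 3.56 to 3.62 on the others. Gata6 was at 5.01 on KO-labelled array 4, below 5.34 to 5.41 on the others.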

How the results depend on the processing

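The calls of Aif1, Cd14 and Mrc1 held under all 16 alternatives, with adjusted p of up to 0.0114, 0.0142 and 0.0361. With arrays left out in turn the log2 difference ranged from 1.12 to 1.38 for Aif1, 1.09 to 1.35 for Cd14, 0.83 to 0.98 for Mrc1, 1.96 to 3.24 for Lyz2, 0.03 to 0.69 for Cd68, 0.08 to 0.60 for Adgre1, -0.37 to 0.12 for Csf1r, -0.38 to 0.13 for C1qa, -0.71 to 0.20 for C1qb and 0.17 to 0.54 for C1qc. Lyz2 kept its difference of 2.57 but not its call with robust estimation (adjusted p = 0.0997). Adjusted p of the 6 uncalled genes never fell below 0.0772. Over the arrays left out the calls numbered 3265 to 5613 of all genes (3265 without control array 1 and 3586 without control array 2, against 5486), 3 to 4 of the 10 genes, 11 to 16 of the other macrophage genes and 8 to 14 of the other complement genes. The other macrophage genes numbered 10 calls after centring and 10 after the repeated quantile normalization, where 38.1% and 41.1% of all calls were higher, against 70.2%. The cause was not tested.

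Same-numbered arrays correlated at 0.098, 0.0043 and 0.115 in their deviations from the group means, and both arrays numbered 3 had low Xist. The arrays numbered 1 and those numbered 3 correlated more than any other KO-labelled array with a control array. KO-labelled array 2 correlated best with control array 1 (0.073), and the numbers were not taken to pair the arrays. With the replicate block, in which KO-labelled array 4 adds nothing, 5921 genes were called and 4 of the 10. C1qb then turned to 0.20, G3bp1 to 0.094 and Vkorc1 to 0.056. Chd2 and Qser1 turned to -0.20 and -0.14 after centring and to -0.24 and -0.079 after the repeated quantile normalization. With arrays left out Chd2 ranged from -0.26 to 0.27, G3bp1 from -0.24 to 0.15, Vkorc1 from -0.29 to 0.056 and Qser1 from -0.12 to 0.31. Of 663 values of the 42 other named genes, 599 kept direction and side of the threshold, 34 lost the call, 14 gained it and 16 turned.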
